A study of Mus musculus with 18 samples.

Results

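Wild-type mouse mammary organoids in EGF medium were compared with organoids that also received a Wnt surrogate and R-spondin 2, over all expressed genes. The comparison rests on 6 of the 18 libraries of the study, 3 per medium, and on 17092 tested genes of the 55536 listed. Organoids came from mammary glands of C57BL/6 mice aged 6 to 7 weeks, of wild-type (WT) or RasGRP1-/- (KO) genotype. RasGRP1 is an exchange factor that loads Ras with GTP, so that the wild-type groups described here keep it and the KO groups lack it. Organoids of each genotype grew for 5 days embedded in matrigel, a gel of basement membrane proteins, and the base medium was DMEM/F12 supplemented with insulin-transferrin-selenium. EGF medium held EGF at 2.5 nM, EGF-WR medium held the same EGF with NGS-Wnt at 0.1 nM and Rspo2 at 8.3 nM, and WR medium held NGS-Wnt and Rspo2 without EGF. Each of 3 batches held 1 library of every group, so that every EGF-WR library has an EGF partner of its own batch. The labels speak of biological replicates without saying whether they came from separate animals or pools, so p-values measure the spread between these cultures.

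Wnt proteins bind Frizzled receptors together with the co-receptors Lrp5 and Lrp6, which stops the destruction of beta-catenin and lets it switch on genes with the TCF/LEF factors. R-spondins bind Lgr4, Lgr5 and Lgr6 and remove the ligases Znrf3 and Rnf43, which otherwise clear Frizzled from the cell surface. EGF acts through its receptor kinase, Ras and ERK. In the mammary gland, Wnt signals are known for their role in stem and basal cells, and EGF receptor signals for duct growth. Mammary ducts have an inner luminal layer, marked by keratins 8 and 18, and an outer basal or myoepithelial layer, marked by keratins 5 and 14 and by contractile proteins.

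The 6 libraries held 27417474 to 31269899 counts, and mitochondrial genes took 1.415% to 2.54% of a library. On the first principal component of the 6 libraries (34.9% of the variance), the EGF libraries of batches 1, 2 and 3 stood at -49.58, -31.73 and -38.46, and the EGF-WR libraries at 17.3, 53.06 and 49.41. The EGF-WR library of batch 1 thus lay nearest to the EGF side. All 5 defining luminal markers (Epcam, Cdh1, Krt8, Krt18 and Krt19) and all 5 defining basal markers (Krt5, Krt14, Krt17, Trp63 and Acta2) were above 0 in every library. The markers of fibroblasts, endothelium and adipocytes were also above 0 in all 6 libraries, so the cultures held RNA of cells other than epithelium. The targeted gene Rasgrp1 was near the detection limit in WT, with 15, 15 and 21 counts in the EGF libraries of batches 1, 2 and 3 and with 7, 6 and 18 counts in their EGF-WR partners, and its difference was not called (edgeR adjusted p = 0.643).

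Adding Wnt surrogate and R-spondin to EGF moved part of the Wnt feedback genes up, together with squamous keratins and many genes of DNA replication, mitosis and cholesterol synthesis. It moved contractile genes of the basal layer, basement membrane and protease genes, BMP pathway genes, chemokines and markers of stromal cells down. Of 30 tested Wnt feedback and target genes, 5 were called higher and 8 lower. The luminal keratins Krt8 and Krt18, 14 of 17 milk genes and 25 of 30 genes that respond to ERK did not pass the test. Over all tested genes 14420 of 17092 did not pass it either, a share close to those of the milk and ERK lists. In the edgeR quasi-likelihood test with the batch as a block, 2672 genes (15.6% of those tested) were called at an adjusted p under 0.05. Of these, 1171 (6.85% of those tested) were higher in EGF-WR medium and 1501 (8.78%) were lower. Large changes were mostly decreases, with 591 called genes at least 2-fold lower and 171 at least 2-fold higher. The median log2 fold change over all tested genes was 0.005. Of the 2672 called genes, 2652 moved in the same direction in all 3 batch pairs. The pairs differed in size, with a median absolute log2 difference of the called genes of 0.447 in batch 1, 0.60 in batch 2 and 0.668 in batch 3. Without the batch term, which leaves the batch differences in the spread, 369 genes were called, all of them also called with it. Without batch 3, 653 genes were called.

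Among the 12 largest called increases at 4 CPM or more (CPM are counts scaled by the effective library size) were Krt1, Ifi27l2a, Runx3, Aqp9, Krt79, Tmc5, Aqp3, Krt16, Sv2c, Dmkn and Aldh1a1. They included 3 keratins (Krt1, Krt16 and Krt79), the water and glycerol channels Aqp3 and Aqp9, and Aldh1a1, a retinaldehyde dehydrogenase. The 12 largest decreases were Csmd1, Lef1, Smoc1, Ccl11, Serpina3n, Id3, Tnxb, Sema3g, Mmp3, Plin1, Masp1 and Abi3bp. Among them were genes for secreted or matrix proteins (Smoc1, Tnxb, Abi3bp, Mmp3), for the lipid droplet coat protein Plin1 and for the chemokine Ccl11. Log2 fold changes ran from 2.25 to 5.17 upward and from -2.42 to -3.48 downward. The groups overlapped for Ifi27l2a and Lef1 and not for the other 22. These genes were chosen as the largest called changes with the same direction in every batch pair, which favours groups without overlap. The share of genes without overlap among all tested genes is not given here, so the count describes only the genes chosen.

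**Figure D1:**
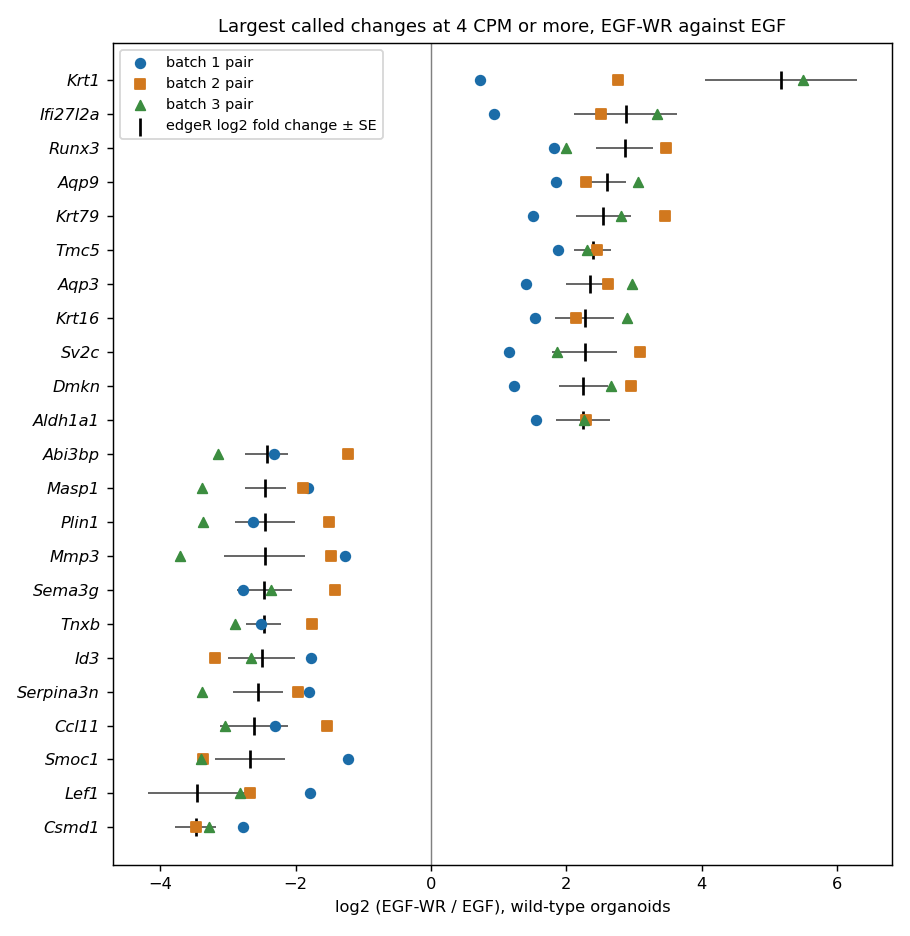
Log2 ratios (x axis) of EGF-WR to EGF medium in wild type for 11 of the 12 largest called increases and the 12 largest called decreases at 4 CPM or more, by gene (y axis). Points are the 3 batch pairs, computed from CPM with 0.5 CPM added. Ticks with bars are the edgeR estimate with 1 SE, an approximation derived from the F statistic. Every pair of a gene lies on the same side of 0, as the choice of these genes required. The batch 1 pair is the smallest for each increase shown.

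Csmd1, which encodes a large membrane protein with complement-type domains (chr8:15892537-17535586, GRCm38), was among the decreases that were alike in every batch. It stood at 19.5, 25.1 and 24.9 CPM in the EGF libraries of batches 1, 2 and 3 and at 2.43, 1.81 and 2.13 CPM in the EGF-WR libraries. Every EGF-WR library was low, and the groups lay far apart. The log2 fold change was -3.48 ± 0.30 SE, with an edgeR adjusted p of 8.93e-06, and the gene was called under all 16 alternatives run.

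Runx3 encodes a DNA-binding Runt-domain factor (chr4:135120652-135177990, GRCm38). It had 1.37, 1.26 and 1.08 CPM in EGF medium and 6.10, 18.9 and 5.81 CPM in EGF-WR medium. All 3 EGF libraries were low, and the batch 2 library was the highest with Wnt. The log2 fold change was 2.86 ± 0.42 SE (edgeR adjusted p = 0.000563), and it too was called under all 16 alternatives. In WR medium its mean was 26.5 CPM ± 14.8 (SD, n = 3). The related Runx2 fell by 0.45 ± 0.13 on the log2 scale (adjusted p = 0.0242).

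The direct readout of the added factors was the list of Wnt feedback and target genes. Of 35 listed genes 30 were tested, and 5 were called higher (16.7%, against 6.85% of all tested genes) and 8 lower (26.7%, against 8.78%). The median log2 was 0.07. The genes that rose were Tnfrsf19, Axin2, Wif1, Myc and Ccnd1, and those that fell were Lef1, Prox1, Wisp1, Wisp2, Sfrp1, Dkk3, Cd44 and Bambi. The list was written from general knowledge of Wnt targets in several tissues, and it did not move as a unit. Without the batch block 2 members were called higher and 0 lower, and without batch 3 these counts were 2 and 5.

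Axin2, the scaffold of the beta-catenin destruction complex and a common feedback target (chr11:108920349-108950783, GRCm38), had 4.48, 5.05 and 4.45 CPM in EGF medium. In EGF-WR medium it had 8.17, 24.1 and 21.7 CPM. The 3 EGF libraries were nearly equal, all EGF-WR libraries were higher, and the batch 1 library rose least. Its log2 fold change was 1.74 ± 0.41 SE, or 3.35-fold (edgeR adjusted p = 0.0125). The call was lost without the block (adjusted p = 0.19), without batch 2 (0.139) and without batch 3 (0.27), and held under 11 of 16 alternatives. The mean in WR medium, without EGF, was 38.9 CPM ± 17.0 (SD, n = 3).

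Wif1 encodes a secreted protein that binds and blocks Wnt ligands. It had 63.5, 43.2 and 50.1 CPM in EGF medium and 180, 145 and 178 CPM in EGF-WR medium, so that the highest EGF library was below the lowest EGF-WR library by more than 2-fold. The log2 fold change was 1.69 ± 0.17 SE (edgeR adjusted p = 7.16e-05). Ccnd1, which encodes cyclin D1, had 310, 371 and 334 CPM against 476, 631 and 675 CPM, a log2 fold change of 0.80 ± 0.09 SE (adjusted p = 3.91e-05). For both genes the groups did not overlap, and both were called under all 16 alternatives. Myc rose by 0.79 ± 0.20 on the log2 scale (adjusted p = 0.0204), and Tnfrsf19, a receptor of the TNF receptor family, by 2.08 ± 0.49 from 0.234 to 0.772 CPM in EGF medium to 0.958 to 4.44 CPM in EGF-WR medium (adjusted p = 0.00791). Both calls were lost without the block and without batch 3, and that of Myc also without batch 2 (adjusted p = 0.159).

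Lef1, a DNA-binding partner of beta-catenin (chr3:131110471-131224356, GRCm38), went the other way. It had 361, 77 and 263 counts in EGF medium and 98, 0 and 22 counts in EGF-WR medium. The batch 2 pair was the lowest of each medium, and the groups overlapped, since 98 counts in 1 EGF-WR library exceed the 77 counts in 1 EGF library. Within each batch the EGF-WR library was the lower one, and the log2 fold change was -3.45 ± 0.73 SE (edgeR adjusted p = 0.00529). In WR medium it had 26, 0 and 9 counts. Sfrp1, a secreted Frizzled-related inhibitor, had 323, 276 and 294 CPM against 205, 140 and 92.5 CPM and fell by 1.08 ± 0.22 on the log2 scale (adjusted p = 0.00603). Wisp1 and Wisp2, both matricellular CCN family genes, fell by 1.53 ± 0.30 and 1.44 ± 0.16.

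Several other feedback genes did not pass the test. Lgr5, an R-spondin receptor and stem cell marker, had 104, 65.7 and 71.3 CPM in EGF medium and 118, 80.7 and 80.0 CPM in EGF-WR medium. Each pair was slightly higher with Wnt, the groups overlapped, and the log2 fold change was 0.22 ± 0.14 SE (adjusted p = 0.348). Notum, which encodes a Wnt-inactivating deacylase, had 7, 22 and 15 counts against 28, 60 and 23, with log2 1.30 ± 0.62 SE (adjusted p = 0.176). Rnf43 and Znrf3, the ligases that R-spondins remove, had log2 values of 0.45 ± 0.19 and 0.30 ± 0.11 (adjusted p = 0.134 and 0.0707). Sox9, a progenitor factor, had log2 0.21 ± 0.12 (adjusted p = 0.286). Sp5, Dkk1, Dkk4, Cdx1 and Cdx2 were below the count filter.

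Of the organoids' own Wnt ligand and R-spondin genes, 12 of 23 were tested. Of these, 1 was called higher (8.33%, against 6.85% of all tested genes) and 2 lower (16.7%, against 8.78%). Wnt10a had 15.2, 8.88 and 7.96 CPM against 17.2, 28.6 and 20.4 CPM and rose by 1.01 ± 0.26 on the log2 scale (edgeR adjusted p = 0.0191). The pair of batch 1 was close together, and those of batches 2 and 3 lay far apart. Wnt9a fell by 1.22 ± 0.32 and Wnt5a by 0.54 ± 0.16, the latter a ligand known mainly for beta-catenin-independent signalling. All 3 ligand calls were lost without the block and without batch 3. Among 18 receptors and co-receptors, Ror1 was called higher (log2 0.47 ± 0.12) and Fzd4, Lrp6 and Lrp5 lower (-1.09 ± 0.24, -0.42 ± 0.09 and -0.22 ± 0.07). These were 5.56% and 16.7% of the list, against 6.85% and 8.78% of all tested genes. Lrp6 had 299, 403 and 335 CPM in EGF medium and 257, 270 and 242 CPM in EGF-WR medium, without overlap. Without the block 0 receptors were called, and without batch 3 only 1 was, lower. The R-spondin receptors Lgr4 and Lgr6 and the receptor Fzd7 were not called. Of 21 cytoplasmic and nuclear components, the co-repressor gene Tle3 was called higher and Wls, the carrier that Wnt ligands need for secretion, lower (log2 -0.41 ± 0.07, adjusted p = 0.00059). Either call was 4.76% of the list, below the shares over all tested genes. Of these components 1 was called without the block and 0 without batch 3.

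**Figure D2:**
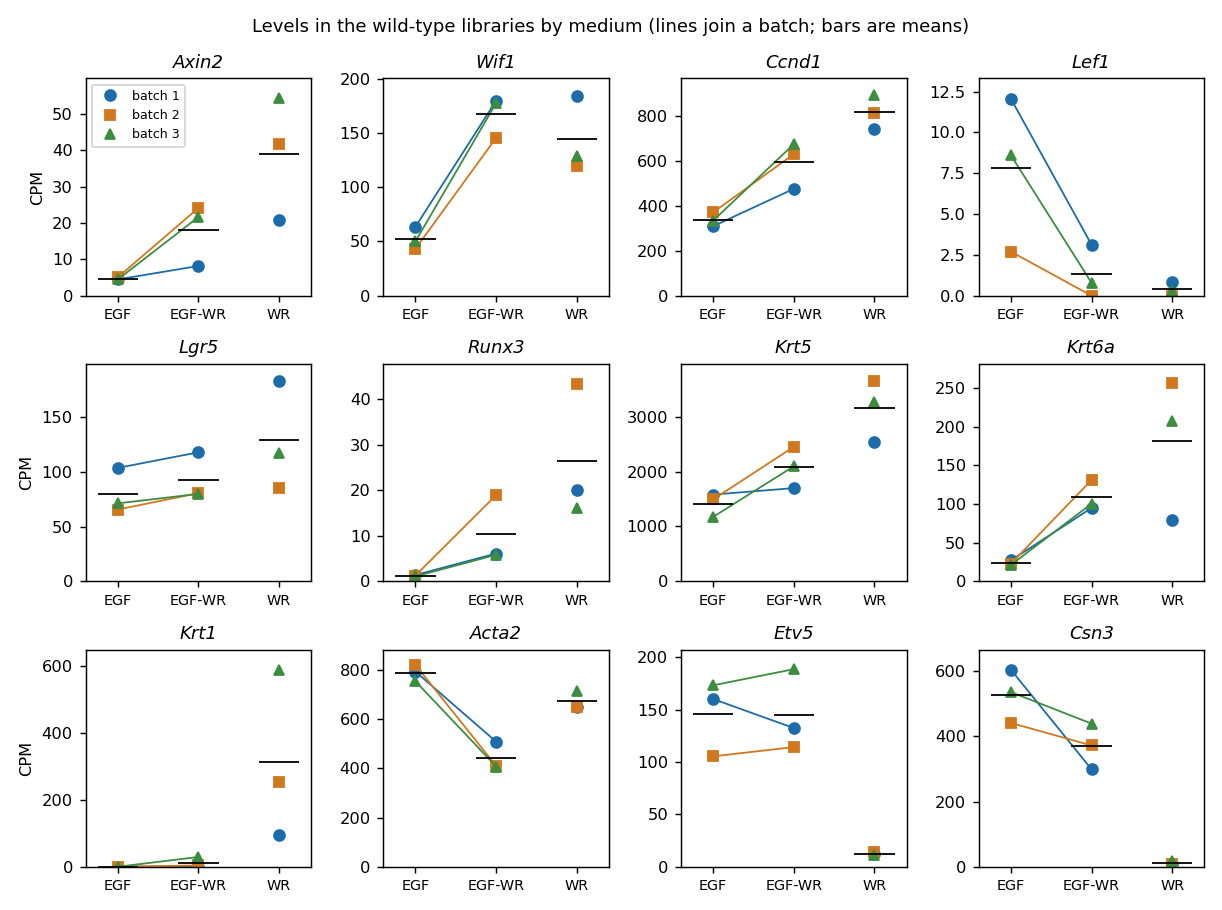
Levels of 12 genes in CPM (y axis, linear from 0) in the wild-type libraries in EGF, EGF-WR and WR medium (x axis). Points are single libraries by batch, bars are means of 3, and lines join the EGF and EGF-WR libraries of a batch; Axin2, Wif1, Ccnd1, Krt6a and Krt1 lie higher in EGF-WR than in EGF medium and Acta2 lower, while Etv5 and Csn3 are not called between these media.

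Because EGF was present on both sides, genes downstream of its receptor were read next. Of 30 ERK-responsive genes, 2 were called higher (6.67%, against 6.85% of all tested genes) and 3 lower (10%, against 8.78%). The median log2 of the list was -0.21. The genes called higher were Ccnd1 and Myc, which the Wnt list also holds. Those called lower were Plaur, the urokinase receptor gene, Spry4, an inhibitor of receptor kinase signalling, and Etv1, an ETS factor (log2 -1.01 ± 0.25, -0.81 ± 0.17 and -0.53 ± 0.17). None of these 3 was called lower without the block. Etv5, an ETS factor that ERK induces, had 160, 106 and 173 CPM in EGF medium and 132, 114 and 189 CPM in EGF-WR medium. The libraries followed their batch rather than their medium, and the log2 fold change was -0.02 ± 0.23 SE (adjusted p = 0.974). Its mean without EGF, in WR medium, was 12.5 CPM. Dusp6, an ERK phosphatase gene, had 349, 421 and 229 CPM against 210, 205 and 215 CPM, with log2 -0.60 ± 0.48 (adjusted p = 0.477).

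In the EGF receptor family list, 1 of 16 tested genes rose (6.25%, against 6.85% of all tested genes) and 4 fell (25%, against 8.78%). Egfr itself had 154, 156 and 165 CPM in EGF medium and 126, 120 and 118 CPM in EGF-WR medium. All 3 Wnt-treated libraries lay below all 3 EGF libraries, and the log2 fold change was -0.39 ± 0.10 SE (edgeR adjusted p = 0.0151). The ligand genes Areg and Tgfa fell by 0.96 ± 0.29 and 0.58 ± 0.14, and Lrig1, an inhibitor of the receptor, by 0.69 ± 0.16. Erbb3, a partner receptor, rose by 0.33 ± 0.08. None of these 5 was called without the block or without batch 3.

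The basal list changed in both directions, with a median log2 of -0.31. Of 23 genes 4 were called higher (17.4%, against 6.85% of all tested genes) and 9 lower (39.1%, against 8.78%). The keratins of the basal layer rose: Krt5 had 1580, 1492 and 1173 CPM in EGF medium and 1697, 2450 and 2095 CPM in EGF-WR medium. Here too the batch 1 libraries were close together and the groups did not overlap (log2 0.52 ± 0.17 SE, edgeR adjusted p = 0.0476). Krt14 rose by 0.35 ± 0.11 (adjusted p = 0.0432) and Krt17, a keratin of stressed or hair follicle epithelium, by 1.57 ± 0.30 (adjusted p = 0.00541). All 3 keratin calls were lost without the block and without batch 3. Those of Krt5 and Krt14 held under 7 of 16 alternatives each. They were also lost without batch 2 (edgeR adjusted p = 0.312 and 0.188) and without the EGF-WR library of batch 1 (0.0899 and 0.14). Trp63, the master regulator of basal identity, had 87.2, 65.8 and 73.6 CPM against 90, 91.2 and 86.3 CPM, and was not called (log2 0.24 ± 0.14, adjusted p = 0.282). The strongest riser on this list was Igfbp2, an IGF-binding protein gene, at 17.9, 17.5 and 18.5 CPM in EGF medium and 46.4, 79.6 and 88.5 CPM in EGF-WR medium. Its EGF libraries were nearly identical and every EGF-WR library was far higher (log2 1.95 ± 0.18, adjusted p = 2.39e-05).

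Contractile genes of the same layer, Acta2, Myh11, Tagln and Mylk, fell. Acta2, smooth muscle actin, had 794, 820 and 754 CPM in EGF medium and 508, 410 and 408 CPM in EGF-WR medium, with no overlap and log2 -0.84 ± 0.18 SE (edgeR adjusted p = 0.00663). Myh11, smooth muscle myosin, had 152, 160 and 131 CPM against 82.3, 53.2 and 47.4 CPM (log2 -1.32 ± 0.24, adjusted p = 0.00287). Tagln, an actin-binding protein gene, and Mylk, the kinase of the myosin light chain, fell by 1.19 ± 0.27 and 0.92 ± 0.17. All 4 calls were lost without the block (adjusted p = 0.0505 for Acta2, 0.11 for Myh11, 0.161 for Tagln and 0.108 for Mylk) and held without batch 3. Vascular smooth muscle and pericytes share these genes, and Rgs5, a pericyte gene, fell as well (log2 -1.91). The part of such cells in the fall of the contractile genes was not tested.

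Among 37 tested genes of epidermal differentiation, 13 were called higher (35.1%, against 6.85% of all tested genes) and 1 lower (2.70%, against 8.78%). Many of the 37 were at or close to 0 in EGF medium, where 8 to 13 of them had no count in a library. Hrnr, Flg2 and Lce1a1 had no count there and at most 4 per library with Wnt and R-spondin. The median log2 of 1.51 includes such genes. The list's pair medians, from CPM with 0.5 CPM added, were smaller, at 0.272, 0.524 and 0.945 in batches 1, 2 and 3. Calm4, a calmodulin-like gene of stratified epithelium, had 0 counts in all EGF libraries and 37, 79 and 73 counts in EGF-WR medium, at least 62.7-fold higher against a floor of 3 counts over the group. Pla2g2f, an epidermal phospholipase gene, also had 0 counts in EGF medium and 9, 27 and 43 counts with Wnt and R-spondin, at least 26.2-fold higher. Dsg1a, a desmosomal cadherin gene, had 0, 0 and 5 counts against 118, 139 and 133 (log2 6.27 ± 0.60, edgeR adjusted p = 1.92e-05). Reads of Dsg1a may be shared with its near-identical neighbours in the desmoglein cluster.

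Krt1, the suprabasal keratin of epidermis (chr15:101845428-101850786, GRCm38), had 11, 5 and 5 counts in EGF medium and 29, 124 and 817 counts with Wnt and R-spondin. The 3 EGF-WR libraries differed from each other by more than 10-fold, and batch 3 carried most of the rise. The log2 fold change was 5.17 ± 1.12 SE (edgeR adjusted p = 0.0105). The call was lost without batch 3 (adjusted p = 0.10), without batch 2 (0.09) and in the 6 libraries alone (0.0549). Its partner Krt10 had 4.48, 3.19 and 4.81 CPM against 6.04, 7.53 and 37.0 CPM and was not called (log2 1.72 ± 0.59, adjusted p = 0.0751). Both were far higher without EGF, with means in WR medium of 313 CPM for Krt1 and 409 CPM for Krt10.

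Krt6a, a keratin of activated and squamous epithelium, had 26.9, 22.5 and 21.0 CPM in EGF medium and 94.7, 131 and 100 CPM in EGF-WR medium. The rise was alike in the 3 batches (log2 2.16 ± 0.33, edgeR adjusted p = 0.00137), and the near-identical Krt6b may share reads with it. Krt16 rose from 4.58, 6.56 and 3.11 CPM to 14.3, 30.5 and 26.3 CPM (log2 2.27 ± 0.43), and Sbsn, suprabasin, from 40.3, 56.2 and 47.9 CPM to 98.2, 81.1 and 87.2 CPM (log2 0.89 ± 0.15). The terminal genes Ivl, Tgm1, Lor and Casp14 were not called, and Krt4, a keratin of moist stratified epithelium, fell by 0.93 ± 0.24. Without the block 8 list members were called higher, and without batch 3, 6 were.

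The luminal lists were mixed. Of 14 pan-luminal markers 1 was called higher (7.14%, against 6.85% of all tested genes) and 0 lower (against 8.78%). It was the tight junction gene Cldn3 (log2 0.46 ± 0.13). Neither Krt8 nor Krt18 passed the test (log2 0.13 ± 0.13 and 0.27 ± 0.13). The summed level of the 5 defining luminal markers was 3988, 4840 and 4666 CPM in EGF medium and 4550, 4588 and 4822 CPM in EGF-WR medium. The range of the EGF libraries covered that of the EGF-WR libraries. Of 17 luminal progenitor markers 4 rose (23.5%, against 6.85% of all tested genes) and 7 fell (41.2%, against 8.78%). Ehf, an epithelial ETS factor, had 264, 351 and 403 CPM against 502, 505 and 589 CPM (log2 0.66 ± 0.11, edgeR adjusted p = 0.000888), and Ltf, lactoferrin, rose by 1.12 ± 0.13. Aldh1a3, a retinaldehyde dehydrogenase of luminal progenitors, fell from 1041, 1175 and 1384 CPM to 520.1, 472.6 and 460.6 CPM. Both ranges were narrow and lay far apart (log2 -1.31 ± 0.17, adjusted p = 0.000322). Without the block 1 progenitor marker was called higher and 2 lower, and without batch 3, 2 each. The related Aldh1a1 went the opposite way, from 3.28, 2.25 and 1.28 CPM to 10.5, 12.9 and 8.02 CPM (log2 2.25 ± 0.40, adjusted p = 0.00147).

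Of 14 tested hormone-sensing markers 5 fell (35.7%, against 8.78% of all tested genes) and 1 rose, the surface antigen gene Ly6a (7.14%, against 6.85%). Esr1, the oestrogen receptor, had 24, 18.9 and 26.6 CPM in EGF medium and 17.9, 10.1 and 11.4 CPM in EGF-WR medium (log2 -0.82 ± 0.18, edgeR adjusted p = 0.00512). Pgr, the progesterone receptor, fell by 0.78 ± 0.13 (adjusted p = 0.000863) and Greb1, an oestrogen-induced gene, by 1.15 ± 0.23. The calls of Esr1 and Pgr were lost without the block and without batch 3, and that of Greb1 without batch 3. Wnt4, a ligand gene that progesterone induces, was not called (log2 0.43 ± 0.26, adjusted p = 0.298).

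Of 17 tested milk genes, Xdh and Elf5 were called higher (11.8%, against 6.85% of all tested genes) and Glycam1 lower (5.88%, against 8.78%). Glycam1, which encodes a glycoprotein of milk, had 66, 75 and 122 counts in EGF medium and 5, 16 and 3 counts in EGF-WR medium. All EGF libraries were far above the EGF-WR libraries, at low levels throughout (log2 -3.70 ± 0.79 SE, or 13.0-fold lower, edgeR adjusted p = 0.00419). None of the 3 calls held without the block or without batch 3. Csn3, kappa-casein, had 605, 441 and 536 CPM in EGF medium and 299, 372 and 439 CPM in EGF-WR medium. The groups lay close to each other without overlap, and the decrease was not called (log2 -0.56 ± 0.29, adjusted p = 0.237). Csn1s1, alpha-S1-casein, had log2 0.19 ± 0.22 (adjusted p = 0.639). Elf5, the ETS factor of alveolar cells, had 235, 364 and 328 CPM against 386, 382 and 451 CPM and rose by 0.41 ± 0.12 (adjusted p = 0.0252).

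Of 20 proposed stem cell markers 4 rose (Aldh1a1, Axin2, Wnt10a and Bcl11b) and 9 fell. These were 20% and 45% of the list, against 6.85% and 8.78% of all tested genes. Those that fell included Zeb1 and Zeb2, mesenchymal transcription factors, Cdh5, the cadherin of endothelium, and Prrx1, a mesenchymal factor (log2 -1.39 ± 0.19, -1.96 ± 0.20, -1.66 ± 0.30 and -1.56 ± 0.16). Bcl11b, a factor of basal cells, rose by 0.97 ± 0.23 on the log2 scale. Procr, Lgr5, Lgr6 and Sox9 were not called. Without the block 1 marker was called higher and 4 lower, the same counts as without batch 3.

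Many cell cycle genes rose. Of 28 genes of S phase 16 were called higher and 0 lower, and of 28 genes of G2 and mitosis 19 were called higher and 0 lower. The shares called higher were 57.1% and 67.9%, against 6.85% of all tested genes, of which 8.78% were called lower. Mcm6, a subunit of the replicative helicase, had 119, 122 and 134 CPM in EGF medium and 149, 221 and 216 CPM in EGF-WR medium (log2 0.62 ± 0.11, edgeR adjusted p = 0.000833). Aurkb, a mitotic kinase, had 25.4, 27.1 and 28.3 CPM against 34.0, 63.5 and 53.8 CPM (log2 0.87 ± 0.14, adjusted p = 0.000564). The EGF libraries agreed closely and the EGF-WR library of batch 1 rose least. Mki67, the common proliferation marker, had 236, 281 and 213 CPM against 253, 486 and 384 CPM, with overlapping groups (log2 0.58 ± 0.16, adjusted p = 0.0259).

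The differences were larger in batches 2 and 3 than in batch 1. The median log2 of the mitosis list was 0.12 in the pair of batch 1, 0.90 in batch 2 and 0.87 in batch 3, and that of the S-phase list 0.10, 0.76 and 0.71. Without the block 0 members of either list were called, and without batch 3, 2 of each were. Without batch 1, 21 of each were called. Without the EGF-WR library of batch 1 alone, 18 mitosis and 15 S-phase genes were called higher. Cdkn1b, the inhibitor p27, rose with them (log2 0.43 ± 0.09, adjusted p = 0.00223).

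Promoters of the mitosis list are shown because its members moved together. Many promoters of late cell cycle genes are known to hold a CHR element, which the MuvB complexes DREAM and B-Myb-MuvB bind. RefSeq windows of 300 bases (250 before to 50 after the start, GRCm38.p6) matched 23 of the 28 tested genes. The letters TTTGAA, on either strand, stood in 19 of 24 windows of these genes (79.2%), in 15.4% of windows of all genes called higher and in 12.1% of the windows of all tested genes. Among list members called higher they stood in 11 of 15 windows (73.3%), not more often than in the whole list. Prc1 and Ccnf, list members that were not called, hold the letters too. The motif was searched after the values had been seen, and a match is a description and not a site. The 120 bases before the start follow for 6 called members, 5′ to 3′ on the strand of the gene, with the letters of the element (TTTGAA, or TTCAAA where it lies on the other strand) in capitals.
Mki67, minus strand, chr7:135716380-135716499: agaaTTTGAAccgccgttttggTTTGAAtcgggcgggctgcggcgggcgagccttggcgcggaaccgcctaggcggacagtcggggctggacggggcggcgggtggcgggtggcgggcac
Top2a, minus strand, chr11:99024190-99024309: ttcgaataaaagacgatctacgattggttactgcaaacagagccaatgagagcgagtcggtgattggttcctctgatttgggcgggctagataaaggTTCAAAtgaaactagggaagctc
Cdk1, minus strand, chr10:69352913-69353032: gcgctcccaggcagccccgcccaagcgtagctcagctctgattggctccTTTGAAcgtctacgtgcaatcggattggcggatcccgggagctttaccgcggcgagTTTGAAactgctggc
Cdc20, minus strand, chr4:118437344-118437463: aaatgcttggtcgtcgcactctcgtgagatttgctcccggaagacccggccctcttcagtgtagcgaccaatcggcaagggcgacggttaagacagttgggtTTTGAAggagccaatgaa
Kif11, plus strand, chr19:37376262-37376381: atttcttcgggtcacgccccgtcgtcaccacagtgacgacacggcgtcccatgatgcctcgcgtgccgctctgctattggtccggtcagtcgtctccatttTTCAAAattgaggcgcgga
Ube2c, plus strand, chr2:164769809-164769928: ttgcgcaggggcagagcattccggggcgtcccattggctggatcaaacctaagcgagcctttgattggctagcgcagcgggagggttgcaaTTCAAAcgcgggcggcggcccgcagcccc

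In Top2a, Cdc20, Kif11 and Ube2c the element lies 18 to 29 bases before the start, and Mki67 and Cdk1 hold 2 copies each. The genes behind these promoters encode a proliferation antigen (Mki67), a topoisomerase (Top2a), the mitotic kinase (Cdk1), an activator and the E2 enzyme of the anaphase-promoting complex (Cdc20, Ube2c) and a spindle motor (Kif11). Cdc20 had 45.7, 50.7 and 39.8 CPM in EGF medium and 53.3, 105 and 97.6 CPM in EGF-WR medium (log2 0.83 ± 0.23, edgeR adjusted p = 0.0298). Ube2c had 41.9, 42.8 and 43.7 CPM against 47.2, 81.2 and 82.7 CPM (log2 0.67 ± 0.15, adjusted p = 0.00652). In both, batch 1 moved little and batches 2 and 3 rose about 2-fold.

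The same windows were searched for the core of the TCF/LEF site, CTTTGAT or CTTTGAA on either strand, the latter of which contains the letters of the element above. It stood in 6.47% of the windows of genes called higher (95% Wilson interval 5.17% to 8.08%), in 4.98% of those of genes called lower (3.96% to 6.24%) and in 5.97% of the windows of all tested genes. The 3 shares lay close together, and sites farther from the start are outside these windows. RefSeq windows matched 11853 of the 17092 tested genes.

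Most genes of cholesterol synthesis rose as well, with 14 of 20 called higher (70%, against 6.85% of all tested genes) and 0 lower. The median log2 of the list was 0.50. Pmvk, a kinase of the mevalonate pathway, had 34.6, 49.9 and 45.5 CPM in EGF medium and 53.8, 87.3 and 90.7 CPM in EGF-WR medium (log2 0.81 ± 0.11, edgeR adjusted p = 0.000182). Mvd, a decarboxylase of the same pathway, had 34.7, 58.6 and 40.1 CPM against 52.3, 110 and 98.5 CPM. Its batch 2 libraries were the highest in each medium, so the groups overlapped although every pair rose (log2 0.92 ± 0.20, adjusted p = 0.00765). Srebf2, the regulator of the pathway, rose by 0.28 ± 0.07. The list's pair medians were 0.25, 0.57 and 0.79 in batches 1, 2 and 3. Its count fell to 0 without the block and to 4 without batch 3. The promoter windows were also searched for the letters TCACNCCAC (N is any base) on either strand. They stood in 1 of 17 windows of this list (5.88%) and in 1.16% of the windows of all tested genes.

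**Figure D3:**
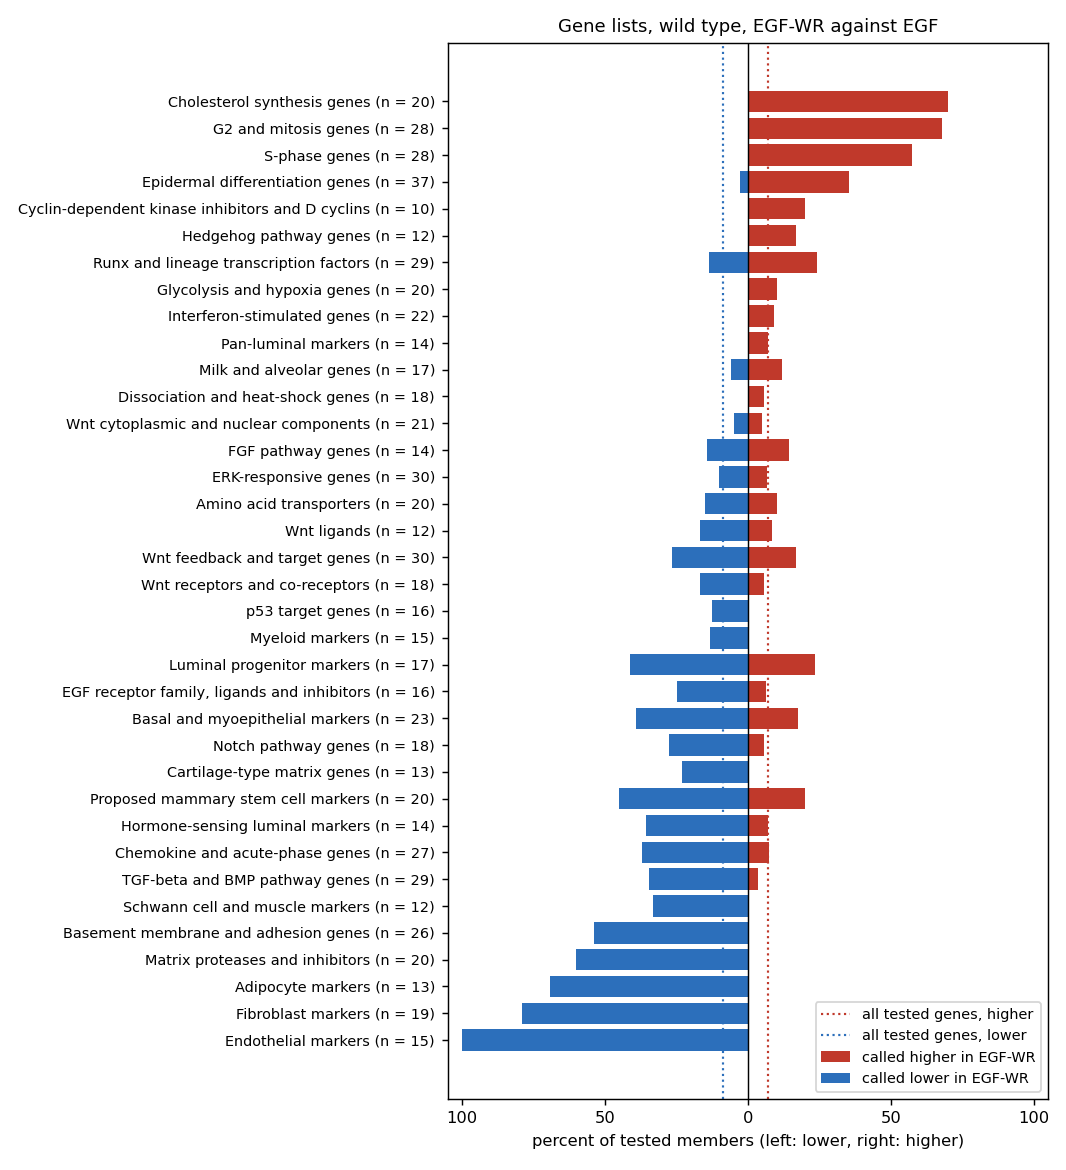
Percent of the tested members of the gene lists with 10 or more tested members called lower (left of 0) or higher (right of 0) in EGF-WR against EGF medium in wild type (x axis), by list (y axis, n tested members). Dotted lines give the percent over all tested genes (6.85% higher, 8.78% lower); of the lists drawn, the cholesterol, mitosis, S-phase and epidermal lists reach farthest to the right and the endothelial, fibroblast, adipocyte and protease lists farthest to the left.

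Many genes of the basement membrane, the sheet of laminin and collagen IV under the epithelium, fell. Of 26 genes of this list 14 were called lower (53.85%, against 8.78% of all tested genes) and 0 higher. The median log2 was -0.45. Col4a1, a chain of collagen IV, had 1163, 761.4 and 887.7 CPM in EGF medium and 477.1, 356.9 and 314.7 CPM in EGF-WR medium. Every Wnt-treated library lay below every EGF library (log2 -1.30 ± 0.14 SE, edgeR adjusted p = 9.53e-05). Fn1, fibronectin, had 2465, 1534 and 1535 CPM against 726.9, 324.9 and 230.4 CPM (log2 -2.27 ± 0.29, adjusted p = 0.000502). Nid1, a linker of laminin and collagen IV, fell by 1.30 ± 0.18. Without the block 4 genes of the list were called lower, and without batch 3, 11 were.

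Of 20 matrix protease and inhibitor genes 12 were called lower (60%, against 8.78% of all tested genes) and 0 higher. Their median log2 was -0.88. Mmp3, stromelysin 1, had 17.4, 9.4 and 49.0 CPM against 6.93, 3.06 and 3.29 CPM (log2 -2.46 ± 0.60, edgeR adjusted p = 0.0171). The EGF libraries differed from each other more than 5-fold, the EGF-WR libraries by less. The Mmp3 call held under 8 of 16 alternatives and was lost, among others, without the block (adjusted p = 0.116), without batch 1 (0.071) and without batch 2 (0.0836). Timp1, an inhibitor of these proteases, had 87.6, 45.1 and 97.9 CPM against 32.8, 21.8 and 25.4 CPM and fell by 1.47 ± 0.26 on the log2 scale (adjusted p = 0.00253). Mmp14, a protease at the cell surface, fell by 0.43 ± 0.08. Without the block 2 genes of the list were called lower, and without batch 3, 7 were. Of 13 cartilage-type matrix genes 3 fell (23.1%, against 8.78% of all tested genes). Among them were Col9a2 and Col11a1 (log2 -0.84 ± 0.22 and -0.59 ± 0.16).

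Markers of stromal cells fell beside these matrix genes. Of 15 endothelial markers 15 were called lower (median log2 -1.64), of 19 fibroblast markers 15 (median -1.33) and of 13 adipocyte markers 9 (median -2.08). These were 100%, 78.95% and 69.2% of the lists, against 8.78% of all tested genes. None of the 3 lists had a member called higher. The summed fibroblast level was 9872, 5317 and 6771 CPM in EGF medium and 4757, 2507 and 2409 CPM in EGF-WR medium. The summed endothelial level was 587.9, 633 and 701.4 CPM against 176.1, 275 and 244.5 CPM, and the summed adipocyte level 815, 1369 and 610.5 CPM against 158.4, 514.6 and 80.8 CPM. All 3 sums lay lower with Wnt in each batch, and no EGF-WR library reached the EGF range. In bulk RNA, fewer cells of a type and less RNA per cell cannot be told apart. The part of these cells in the fall of matrix, protease, BMP and chemokine genes was not tested.

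Most single markers followed the sums, while 4 fibroblast and 4 adipocyte markers were not called. Pecam1, an endothelial adhesion protein gene, had 90, 108 and 97.5 CPM in EGF medium and 19.5, 46.1 and 35.6 CPM in EGF-WR medium (log2 -1.57 ± 0.26, edgeR adjusted p = 0.0016). Col3a1, a fibrillar collagen of fibroblasts, had 763, 224 and 539 CPM against 200, 89.8 and 113 CPM (log2 -1.83 ± 0.27, adjusted p = 0.00111). Fabp4, the fatty acid carrier of adipocytes and capillaries, had 273, 519 and 213 CPM against 41.0, 177 and 29.6 CPM (log2 -2.33 ± 0.42, adjusted p = 0.004). These 3 did not overlap between media, but they were chosen after their values had been seen. The share of genes without overlap among all tested genes is not given here. In WR medium the sums were 4140 to 9230 CPM for fibroblasts, 383.5 to 542.2 CPM for endothelium and 547.5 to 1967 CPM for adipocytes. Without the block, 8 endothelial, 2 fibroblast and 0 adipocyte markers were called lower, and without batch 3 these counts were 10, 11 and 0.

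Of 15 myeloid markers 2 were called lower (13.3%, against 8.78% of all tested genes), Csf1r and Cd14, the latter also a luminal progenitor marker. The median log2 of the list was -1.34, with pair medians of -0.30, -0.51 and -1.90 in batches 1, 2 and 3. Its summed level was 818.7, 706.6 and 1064 CPM in EGF medium and 668.6, 384.2 and 593.4 CPM in EGF-WR medium, lower in each batch and without overlap. Neither call held without the block or without batch 3. Ptprc, the pan-leukocyte gene, was at most 1.57 CPM in the 6 libraries. Only 2 of 14 lymphocyte markers passed the count filter, and neither was called.

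**Figure D4:**
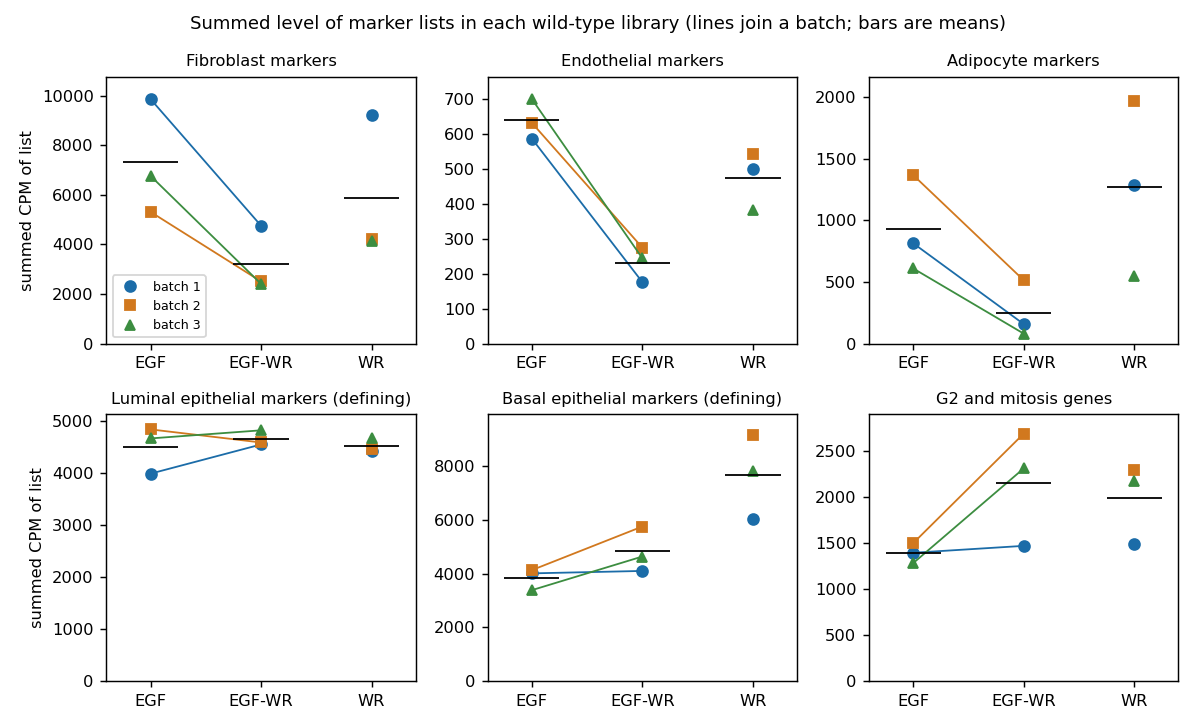
Summed CPM (y axis, linear from 0) of 5 marker lists and of the mitosis list in each wild-type library in EGF, EGF-WR and WR medium (x axis). Points are libraries by batch, bars are means of 3, and lines join the EGF and EGF-WR libraries of a batch; the fibroblast, endothelial and adipocyte sums are lower with Wnt in all 3 batches, and the mitosis sum moves little in batch 1 (1392 and 1467 CPM).

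In the TGF-beta and BMP list 1 of 29 genes rose (3.45%, against 6.85% of all tested genes) and 10 fell (34.5%, against 8.78%). The median log2 was -0.44. Id3, a target of BMP signalling that blocks helix-loop-helix factors, had 69.8, 154 and 60.0 CPM in EGF medium and 20.0, 16.5 and 9.06 CPM in EGF-WR medium. The groups lay far apart although the EGF libraries varied (log2 -2.50 ± 0.49 SE, edgeR adjusted p = 0.00635). The call of Id3 was lost without the block (adjusted p = 0.144) and without batch 3 (0.217). Id1 fell by 1.88 ± 0.57 (adjusted p = 0.0462). Among the ligands, Bmp2 had 49.4, 50.8 and 83.1 CPM against 27.9, 16.3 and 19.1 CPM (log2 -1.56 ± 0.30, adjusted p = 0.00441), and Bmp3 fell by 1.78 ± 0.31. Ltbp2, a matrix protein gene related to TGF-beta binding proteins, fell from 827.7, 1043 and 1155 CPM to 439.4, 244.4 and 246.9 CPM (log2 -1.80 ± 0.30). Tgfb2 was the gene that rose (log2 0.65 ± 0.15). Without the block 4 genes of the list were called lower, as many as without batch 3, and 0 higher.

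In the Hedgehog list 2 of 12 genes rose (16.7%, against 6.85% of all tested genes) and 0 fell. One of them, Gli1, a target and effector of the pathway, had 6.49, 1.82 and 2.91 CPM in EGF medium and 13.2, 18 and 11.0 CPM in EGF-WR medium. All Wnt-treated libraries were above all EGF libraries (log2 2.00 ± 0.44, edgeR adjusted p = 0.00935). The receptor and target Ptch1 was not called (log2 0.02 ± 0.24, adjusted p = 0.971). The call of Gli1 was lost without batch 3. In the Notch list 5 of 18 fell (27.8%, against 8.78% of all tested genes), among them Hey2 and Heyl, targets of the pathway, and the receptor Notch4 of endothelium, and 1, Rfng, rose. Without the block 0 Notch genes were called, and without batch 3, 3 were lower. In the FGF list 2 of 14 rose and 2 fell (14.3% each, against 6.85% and 8.78% of all tested genes). Fgfbp1, a carrier of FGF ligands, rose from 8.66, 14.2 and 13.5 CPM to 26.0, 35.3 and 46.6 CPM (log2 1.56 ± 0.22, adjusted p = 0.000322). Fgfr1, a receptor, fell from 1167, 1004 and 986.1 CPM to 762.9, 599.8 and 464.7 CPM (log2 -0.82 ± 0.12).

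Of 29 Runx and lineage transcription factors 7 rose (24.1%, against 6.85% of all tested genes) and 4 fell (13.8%, against 8.78%). Irx3, an Iroquois homeobox factor, had 172, 216 and 186 CPM in EGF medium and 292, 346 and 376 CPM in EGF-WR medium (log2 0.81 ± 0.09, edgeR adjusted p = 3.87e-05). Klf5, an epithelial zinc finger factor, and Foxq1, a forkhead factor, rose by 0.64 ± 0.13 and 1.00 ± 0.28. Sox4 and Msx2 fell by 0.33 ± 0.08 and 0.60 ± 0.17. Runx1, Gata3 and Klf4 were not called. Without the block 3 list members were called higher and 0 lower, and without batch 3 these counts were 5 and 0.

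Of 27 chemokine and acute-phase genes 10 fell (37.0%, against 8.78% of all tested genes) and 2 rose (7.41%, against 6.85%). Cxcl5, a neutrophil attractant, had 71.0, 146 and 143 CPM in EGF medium and 22.0, 33.2 and 22.4 CPM in EGF-WR medium (log2 -2.17 ± 0.30, edgeR adjusted p = 0.000646), without overlap. Cxcl14 and Cxcl12, both chemokines, fell by 2.12 ± 0.30 and 1.84 ± 0.33, and Saa3, an acute-phase protein gene, by 2.01 ± 0.46. Il33, an alarmin of epithelium, rose by 1.60 ± 0.42 (adjusted p = 0.0268), with groups that overlapped. Without the block 4 members were called lower, and without batch 3, 3 were. The stromal marker sums given above were lower too, and the part of those cells in these decreases was not tested.

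The 22 interferon-stimulated genes had a median log2 of 0.90, but only Oas1a and Bst2 were called, and 0 were lower. Their medians by pair were 0.09 in batch 1, 1.00 in batch 2 and 1.27 in batch 3. Irf7, a master regulator of the response, had 27.5, 40.3 and 48.1 CPM in EGF medium and 42.6, 110 and 156 CPM in EGF-WR medium, with log2 1.24 ± 0.41 (adjusted p = 0.0627). The batch 1 pair again moved least. Of 20 glycolysis and hypoxia genes 2 rose, of 16 p53 targets 2 fell, and of 18 dissociation and heat-shock genes 1 rose, against 6.85% of all tested genes called higher and 8.78% lower. The glycolysis and hypoxia list had a median log2 of 0.46, with pair medians of 0.47, 0.01 and 0.72, while the medians of the p53 and heat-shock lists were -0.21 and -0.08. Of 20 amino acid transporters 2 rose (10%) and 3 fell (15%), with Slc6a14 the largest change (log2 1.54 ± 0.26).

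The same addition in RasGRP1-/- organoids was compared next, as the design of 2 genotypes by 3 media allows. The KO comparison shares the batches with the wild-type one and no library. In KO 1991 genes (11.6% of those tested) were called, 884 higher (5.17%) and 1107 lower (6.48%). Of these, 1561 were called in both genotypes, all in the same direction, which is 58.4% of the wild-type calls and 78.4% of the KO calls. Of the 2672 wild-type calls, 2652 had the same sign in KO, or 99.25%, against 76.9% of all tested genes. The median log2 of genes called higher in WT was 0.47 in WT and 0.38 in KO, and that of genes called lower was -0.76 and -0.60. The medians in WT are those of genes chosen for their size there. Across the 2672 genes the log2 fold changes of the genotypes had a Pearson r of 0.887, a description over genes that share their libraries.

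The test of the difference between the genotypes called 0 of 17092 genes (0%), with 306 genes at an unadjusted p under 0.05 in edgeR. DESeq2 also called 0, with 415 genes at that level. Axin2 had 1.73, 9.44 and 6.91 CPM in EGF medium in KO and 5.71, 37.6 and 35.0 CPM in EGF-WR medium, a log2 fold change of 2.04 ± 0.40 SE (edgeR adjusted p = 0.007). Its difference from the wild-type response was log2 0.30 ± 0.56. All 24 of the genes with the largest wild-type changes had the same sign in KO, and 19 of them were called there. In KO 11 of 28 mitosis genes, 12 of 28 S-phase genes and 16 of 20 cholesterol genes were called higher. Called lower there were 8 of 15 endothelial, 13 of 19 fibroblast and 8 of 13 adipocyte markers. Over all tested genes in KO, 5.17% were called higher and 6.48% lower.

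**Figure D5:**
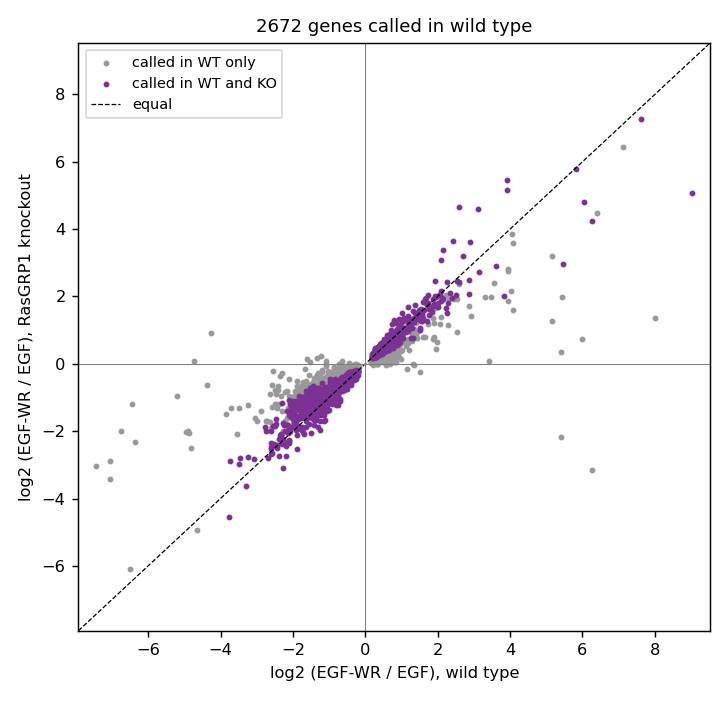
Log2 fold change of EGF-WR against EGF medium in RasGRP1 knockout (y axis) against that in wild type (x axis) for the 2672 genes called in wild type. Each point is a gene, purple where it was also called in knockout (1561 genes), and the dashed line marks equal change; 2652 of the points have the same sign in both genotypes.

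The 5 genes with the lowest unadjusted p of the genotype difference at 1 CPM or more were Cyyr1, Abi3bp, Serpinb9, Syt15 and Prrx1, and none was called (adjusted p of 1 for each). All 5 fell in WT. Cyyr1 had 3.08, 3.79 and 4.42 CPM in EGF medium and 0.702, 1.74 and 1.37 CPM in EGF-WR medium in WT, and 1.61, 2.10 and 1.48 against 2.04, 2.43 and 1.31 CPM in KO. The wild-type libraries separated by medium and the KO libraries did not (difference in log2 1.76 ± 0.45, unadjusted p = 0.00123). Prrx1, which encodes a mesenchymal homeobox factor, fell in both, by 1.56 ± 0.16 in WT and 0.83 ± 0.16 in KO.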

How the data were processed

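For all 18 libraries the authors deposited whole-number counts of reads, 1 row per Ensembl gene. Per the labels' protocols, organoids were dissociated with TrypLE, and a NuGEN kit turned 100 ng of total RNA into each library, which was read single-end over 50 bases. STAR, DESeq2 and the GRCm38 genome are named in the submitters' processing notes. Not given in the sources used here are their versions, the annotation release, the counting tool and its strand setting, so a gene and its antisense partner cannot be told apart. Per the file headers, a second deposited table holds the authors' log2 fold changes, p-values and adjusted p-values, from a model that names batch, genotype and treatment. For the wild-type comparison of EGF with EGF-WR medium, 3325 of the 17092 genes tested here had an adjusted p under 0.05 in that table. Its other genes were not counted. No value of that table enters a test here.

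In edgeR 4.0.16 (R 4.3.3), TMM scaled the counts, and filterByExpr kept genes that reached a count of 10 in enough libraries and a total of 15. All 18 libraries entered 1 fit with 6 group means and the batch as a block, since 3 pairs alone leave 2 residual degrees of freedom. Differences were tested by the robust quasi-likelihood F-test, two-sided, with Benjamini-Hochberg adjustment over all 17092 genes, and called at an adjusted p under 0.05. Every adjusted p in the text comes from edgeR unless DESeq2 1.42.0 is named. Each SE is an approximation, the absolute log2 fold change divided by the square root of the F statistic of its test. For 1 gene alone, an exact permutation over 3 pairs cannot go below p = 0.25, and over 3 against 3 libraries not below 0.1. The labels name the batch, which equals the replicate number. Deviations from the group means of same-numbered EGF and EGF-WR libraries correlated at 0.29, 0.277 and 0.283, and those of different numbers at -0.094 to -0.192.

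The comparison, the 31 gene lists and the 8 lists of cell type markers were chosen with earlier results of these data known, so their counts are descriptions, beside the counts over all genes. Named genes are the 12 largest called changes in each direction at 4 CPM or more with 1 direction in all pairs, up to 6 called members of each list and direction at 1 CPM or more, a fixed set of genes given whatever their result, and the 5 lowest p-values of the genotype difference. Other list members given with values (such as Mcm6, Top2a, Ube2c, Sbsn, Irf7, Ptch1, Pecam1, Col3a1 and Fabp4), the TTTGAA motif and the promoters printed were chosen after their values had been seen. On simulated counts the fit was checked for recovery of known changes. Genes with near-identical copies may share reads. Some genes that these rules name are not reported here.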

Additional observations from a re-analysis of the deposited data

Results flagged for a closer look

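Wnt4, which encodes a Wnt ligand, was higher with Wnt and R-spondin in all 3 wild-type pairs and lower in all 3 KO pairs. In WT it had 5.95, 6.63 and 4.75 CPM in EGF medium and 6.74, 10.8 and 5.96 CPM in EGF-WR medium. The KO values were 5.31, 7.47 and 9.45 CPM in EGF medium and 4.04, 5.13 and 5.88 CPM with all factors. The difference of the 2 responses was log2 -0.99 ± 0.36 SE in edgeR, with an unadjusted p of 0.0146 and an adjusted p of 1, so it did not pass the correction over all genes, and neither response was called alone. Groups of 3 libraries were not searched for single outlying values.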

How the results depend on the processing

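The wild-type comparison called 2672 genes. With no replicate block it called 369, and in KO 115 against 1991. Calling at an adjusted p under 0.01 left 1265 genes in WT. Leaving out 1 batch at a time gave 653 to 1954 genes in WT and 366 to 1313 in KO, the lowest without batch 3. Leaving out 1 wild-type library at a time gave 1191 to 2700, the lowest without the EGF library of batch 3, and 1569 and 1620 without the EGF-WR libraries of batches 2 and 3. The share of higher calls was 43.8%, against 29.3% without the block and 27.7% without batch 3. DESeq2 called 3339, RLE factors 2663, no filter 2258, a minimum count of 50 2816, the 6 libraries alone 2446 and the 9 WT libraries 3220. The genotype difference called 0 genes under each setting run. Of 173 named genes called, 37 were called under every alternative run, 120 lost the call without the block and 95 without batch 3, and no sign among the called genes was reversed. The TCF motif stood in 45.3% of windows of genes called higher with the shorter core CTTTG (47.2% of all tested) and in 0.899% with CTTTGATC (0.682%). Notum, at 7 to 60 counts a library, and Rasgrp1, at 6 to 21, showed no difference detectable at this depth and number of libraries, while Tnfrsf19, at 7 to 123 counts, was called; the part of depth was not tested.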
